A study of Homo sapiens with 15 samples.

Results

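The trefoil factor genes TFF1, TFF2 and TFF3 lie side by side on chromosome 21, and open chromatin around them was described here in HPAF-II cells, a human pancreatic adenocarcinoma line. The peaks of all 15 libraries were merged where they overlapped by at least 1 bp, and a region belonged to the locus if it lay inside 1 of the 3 genes or within 50 kb of either end. This gave 31 regions of 222814 in all, between positions 42261667 and 42416535 of chromosome 21 in hg38 coordinates. The locus was chosen because an earlier look at these data, in peak lists cut to equal length, had found the region at the start of TFF2 in all 7 libraries of inhibitor-treated cells and in none of the 8 control libraries. The locus was thus chosen by a contrast between inhibitor and solvent, which is given here as a description without a test, and it supports nothing by itself. The outermost regions of the locus lay 48573 bp below TFF3 and 48284 bp above TFF1, with calls in 4 and 15 libraries. The nearest regions outside it lay 52650 bp and 60564 bp away, with calls in 13 and 14.

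The study asked how accessible chromatin differs once WNT signalling is blocked. Cells received 1 µM Lgk974, an inhibitor of porcupine, the enzyme that attaches the lipid WNT proteins need for secretion, or the solvent DMSO. There were 4 DMSO libraries and 4 Lgk974 libraries at 24 h, and 4 DMSO libraries and 3 Lgk974 libraries at 48 h. The assay was ATAC-seq, which tags open DNA by transposase insertion, and all libraries came from 1 cell line, although the labels' culture notes also describe KATO III cells. The labels do not say that replicates were separate cultures, so a p-value here reflects the spread between samples, and that spread may be technical.

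Trefoil factors are small secreted proteins held together by the disulfide-bonded loops of the trefoil domain. They are made by mucous cells, packed with mucins, and help to protect and repair the lining of the gut. In the stomach, TFF1 is typical of surface mucous cells and TFF2 of deeper neck and gland cells, while TFF3 is typical of intestinal goblet cells. The 3 genes are read toward lower coordinates, so the start of each is its higher-numbered end. From low to high coordinates, the window held part of ABCG1, which encodes a lipid transporter, then TFF3 (42311667 to 42315409), TFF2 (42346357 to 42350994), the long non-coding RNA gene LOC105372815 (42352293 to 42365112), TFF1 (42362282 to 42366535), the membrane serine protease gene TMPRSS3 (42371890 to 42396052), and part of UBASH3A, a regulator of T cell signalling. LOC105372815 overlaps the far end of TFF1 and is read in the opposite direction.

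Promoter sequences were matched by gene symbol to RefSeq on GRCh38.p14, and 2 of the 7 genes in the window matched, LOC105372815 and TMPRSS3. ABCG1, TFF1, TFF2, TFF3 and UBASH3A were not matched. Both sequences are the 250 bases before a listed start of the gene, printed 5′ to 3′ along the gene. For TMPRSS3 that start lies inside the span given above, 42371890 to 42396052. The upper end of the span lies in another region, 42395812 to 42396384, called in all 15 libraries. The first, chr21:42352043-42352292 on the plus strand, is shown because it lies in the gap between the region at the start of TFF2 and the next region, and its capitals mark every copy of CCTCCAG. The second, chr21:42389150-42389399 on the minus strand, is shown because it lies wholly within a region of the locus, and its capitals mark the matches to the motifs searched.
LOC105372815: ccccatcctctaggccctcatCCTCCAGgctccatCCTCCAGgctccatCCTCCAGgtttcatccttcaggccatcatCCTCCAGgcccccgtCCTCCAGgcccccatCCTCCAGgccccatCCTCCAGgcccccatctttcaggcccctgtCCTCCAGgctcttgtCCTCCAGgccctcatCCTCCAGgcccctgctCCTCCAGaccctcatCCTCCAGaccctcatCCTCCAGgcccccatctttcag
TMPRSS3: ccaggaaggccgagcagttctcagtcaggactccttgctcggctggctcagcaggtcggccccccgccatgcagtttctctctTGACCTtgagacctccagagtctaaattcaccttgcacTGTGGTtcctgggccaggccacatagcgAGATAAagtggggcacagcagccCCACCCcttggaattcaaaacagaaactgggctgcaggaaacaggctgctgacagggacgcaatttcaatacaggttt
The upstream sequence of LOC105372815 held 13 copies of CCTCCAG, starting 14 to 30 bases apart (median 15), a count that no other of 35116 RefSeq promoters of this length reached. The letters CCTCCAG were chosen after reading this sequence, so that comparison is a description and not a test. None of its 250 bases lay in a region called in any library, and 64.8% of them were G or C. All 250 bases of the TMPRSS3 sequence lay in a region called in 12 libraries. Both strands of both sequences were searched for 12 motifs. TMPRSS3 held 4 of them, on the opposite strand AGGTCA (printed as TGACCT), which nuclear receptors bind and 12.1% of promoters hold, and on the printed strand the RUNX letters TGTGGT (11%), the GATA letters AGATAA (9.17%) and the KLF letters CCACCC (31.3%). The other 8 had no match in either sequence, namely the TATA box letters TATAAA (in 10.7% of promoters), the TCF/LEF letters CTTTGAT (2.26%), the FOXA letters TGTTTAC (2.98%), the AP-1 motif (6.57%), the TEAD letters GGAATG (11.9%), the ETS letters CCGGAA (14.5%), the box CCAAT (32.0%) and the full estrogen receptor element (0.0399%), whose letters overlap those of AGGTCA. A match describes letters in a window, not a bound site.

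Each library came as its own peak list of 53583 to 127755 peaks, and without read counts its depth is unknown. Where no peak was called, the region may still be open too weakly to be listed. For comparisons at equal length, the 53583 most significant peaks of each library were taken, the number in the shortest list. In the regions they called, 3 libraries stood apart by the mean share of regions held in common with each of the others (Jaccard index): 0.376 for DMSO 24 h replicate 3, 0.513 for Lgk974 24 h replicate 3 and 0.478 for Lgk974 48 h replicate 3, against 0.583 to 0.656 for the rest. Ends of all 8 epithelial marker genes had a peak in every library, as did 55.7% of all protein-coding genes, and so did those of the pancreatic genes PDX1, GATA6 and ONECUT2. Among the markers of other cell types given here, the leukocyte genes CD3E and SPI1 also had a peak in all 15, RBFOX3 in 12, COL1A2 in 11, PDGFRB in 10, NEUROD6 in 4, PTPRC in 2 and CDH5 in 1, while PECAM1, TEK and DCN had none. What part such cells might have in the results was not tested.

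**Figure D1:**
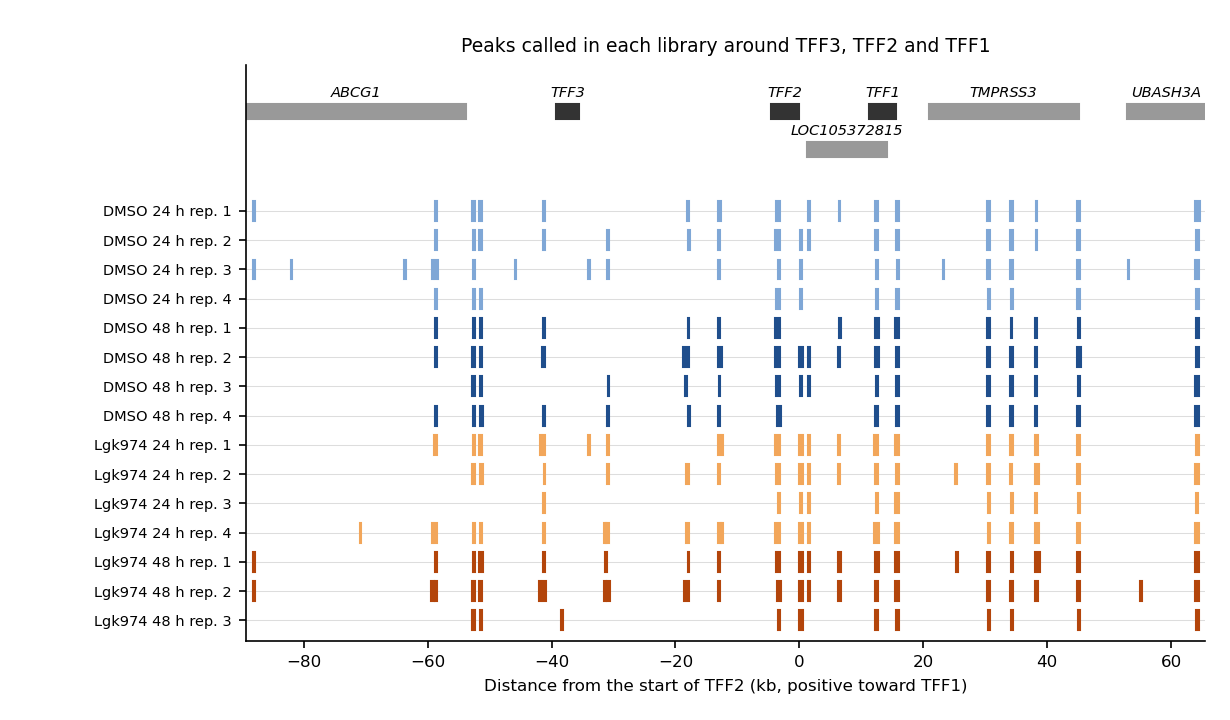
Peaks called in each of the 15 libraries across the trefoil factor locus, by distance from the start of TFF2 in kb. There is 1 row per library, coloured by group, with the genes of the window drawn above the rows. The columns of peaks at both ends of TFF1 and at the far end of TFF2 run through all 15 rows, whereas the column at the start of TFF2 is broken in 3 DMSO rows and the body of TFF3 holds 1 peak.

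The 31 regions ranged from those open in every library to those seen once. A peak was called in all 15 libraries at 7 regions (22.6% of the locus, against 15.9% of all regions) and in 1 library at 8 (25.8%, against 39.5% of all regions). The regions called everywhere were 1 at each end of TFF1, 1 at the far end of TFF2, 3 that overlapped TMPRSS3 and 1 in UBASH3A. They were 498 to 1012 bp wide (median 702), and the regions of 1 library were 200 to 294 bp wide (median 221.5). Of those 8 narrow regions, 5 came from DMSO 24 h replicate 3, 1 of the libraries that stood apart. Genes of the window overlapped 22 regions by at least 1 base, with 6 each at ABCG1 and TMPRSS3, 2 each at TFF1 and TFF2 and 1 at TFF3. The regions at the starts of TFF1 and TFF2 lay mostly upstream of these genes. At equal list length 19 regions were left, of which 6 (31.6%) were called in all 15 libraries, against 30.3% of all regions. The widest stretch without a peak in any library was 11924 bp, between TFF3 and TFF2.

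TFF2, a factor with a pair of trefoil domains, carried different patterns at its ends. The region at its start, 42350875 to 42351648, overlapped the first bases of the gene and reached upstream. Among all deposited peaks it was called at 24 h in 3 of 4 libraries with DMSO and 4 of 4 with Lgk974, and at 48 h in 2 of 4 and 3 of 3. In lists of equal length, 0 of 8 DMSO libraries and 7 of 7 with Lgk974 had it, the values by which the locus had been chosen, and over all regions called in 3 to 12 libraries 0.364% had this pattern and 0.133% the reverse. Without the 3 libraries that stood apart the counts were 0 of 7 and 5 of 5. Requiring peaks to cover at least 50% of the region left 1 DMSO and 6 Lgk974 libraries. Among all deposited peaks none of the 31 regions was called in every library of 1 treatment and none of the other, against 0.0331% of regions with every Lgk974 library and 0.0315% with every DMSO library. Because bulk chromatin was assayed, fewer cells with the region open and less opening per cell cannot be told apart.

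The rank of a peak in its own list, with 1 the most significant, shows where the region at the start of TFF2 stood in each library. A rank at or before 53583 puts a peak in the lists of equal length. At 24 h the ranks were 79191, 67957 and 58168 in DMSO replicates 2, 3 and 4, with no peak in replicate 1, and 18595, 36792, 34832 and 31246 in Lgk974 replicates 1 to 4. At 48 h they were 82852 and 60992 in DMSO replicates 2 and 3, with no peak in replicates 1 and 4, and 26923, 38130 and 17701 in Lgk974 replicates 1 to 3. The last rank with Lgk974 was 38130 and the first with DMSO 58168, which restates the calls by which the locus was chosen. Since the lists differ in length, these positions are not a measure of change: as a percent of the list the peaks stood at 19.5 to 65% with Lgk974 and 53.2 to 79.0% with DMSO, and there the treatments overlapped, through Lgk974 24 h replicate 3, the shortest list. The peaks were also of different width, 315 to 530 bp in the 5 DMSO libraries (median 352) and 330 to 715 bp in the 7 Lgk974 libraries (median 632). Their summits lay in the same stretch, 244 to 405 bp upstream of the start of TFF2 with DMSO (median 299) and 286 to 390 bp with Lgk974 (median 305).

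The region at the far end of TFF2, 42347038 to 42348049, lay inside the gene, 681 bp from its end, and was called in all 15 libraries. Its ranks ran from 12106 to 40100 with DMSO (median 29181) and from 21448 to 45901 with Lgk974 (median 32816), so the treatments overlapped here. Within a list, the peak at the start of TFF2 stood above that at the far end in 0 of the 5 DMSO libraries with both peaks and in 3 of the 7 Lgk974 libraries. The 2 regions of TFF2 lay 2825 bp apart.

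**Figure D2:**
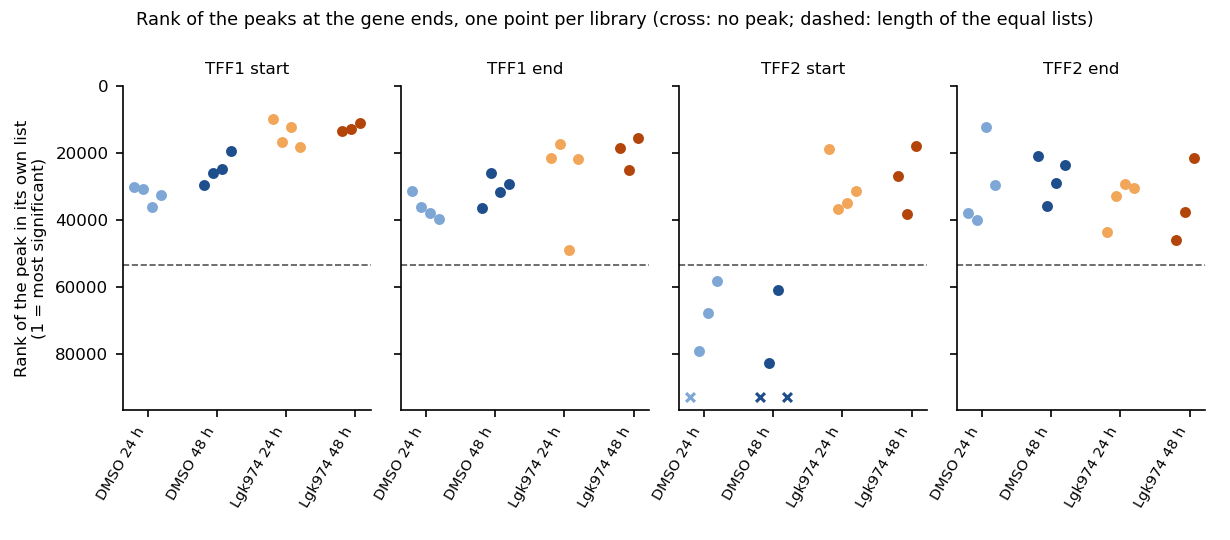
Rank of the peak at each end of TFF1 and TFF2 in its library's own list (vertical axis, 1 at the top), 1 point per library in 4 groups, with a cross where no peak was called and a dashed line at the 53583 peaks of the equal lists. At the start of TFF2 all Lgk974 points lie above the line and all DMSO points below it or absent; at the start of TFF1 all points lie above the line, with Lgk974 at 9778 to 18215 and DMSO at 19402 to 36216.

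TFF1, the trefoil factor of surface mucous cells, had peaks at both ends in all 15 libraries. At its start, in the region 42366401 to 42367102, the ranks at 24 h were 30155, 30707, 36216 and 32525 in DMSO replicates 1 to 4 and 9778, 16565, 12013 and 18215 in Lgk974 replicates 1 to 4. At 48 h they were 29656, 25955, 24868 and 19402 in DMSO replicates 1 to 4 and 13382, 12777 and 10880 in Lgk974 replicates 1 to 3. The medians were 12777 with Lgk974 and 29905.5 with DMSO, and no Lgk974 rank came after any DMSO rank. As a percent of the list the peaks stood at 10.3 to 22.4% with Lgk974 and 22.4 to 42.4% with DMSO, ranges that met but did not overlap. The share of all regions with ranks set apart in this way was not counted. The locus was chosen by this same contrast, so the ranks are a description. The summits lay 252 to 396 bp upstream of the start of TFF1, a distance close to that at TFF2. At the far end, 42363011 to 42363875, a stretch that also lies in LOC105372815, the ranks were 25987 to 39552 with DMSO (median 33904) and 15563 to 49051 with Lgk974 (median 21473). The treatments overlapped there, and Lgk974 24 h replicate 3 had the last rank of all, 49051. As a percent of the list the peaks stood at 17.4 to 91.5% with Lgk974 and 24.8 to 51.6% with DMSO.

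Ranks within 1 list need no scaling between libraries, and by them the place of the start of TFF1 is described. Its peak was the most significant of the whole locus in 5 of 7 Lgk974 libraries and in 0 of 8 DMSO libraries. The region in UBASH3A held that place in 5 DMSO and 2 Lgk974 libraries, the TMPRSS3 region starting at 42381322 in 2 DMSO libraries, and the far end of TFF2 in 1 DMSO library. The peak at the start of TFF1 stood above the UBASH3A peak in 0 of 8 DMSO and 5 of 7 Lgk974 lists, and above that TMPRSS3 peak in 2 of 8 and 7 of 7. It stood above the peak at its own far end in 8 of 8 and 7 of 7. These orders describe a locus chosen by the same contrast between treatments. How often other regions of the series differ in this way was not counted.

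Taking shorter lists of equal length from every library showed at which depth of the ranking each end appeared. Among the 20000 most significant peaks, the start of TFF1 appeared in 1 of 8 lists with DMSO and 7 of 7 with Lgk974 (1 of 7 and 5 of 5 without those that stood apart), a pattern of every Lgk974 and at most 1 DMSO library that 0.975% of tested regions had at that length. Among 40000 it was called in all 15. The start of TFF2 was called in 0 DMSO and 2 Lgk974 libraries among 20000 peaks, 0 and 3 among 30000, and 0 and 7 among 40000, where 0.505% of tested regions had that same split. The far end of TFF2 ran the other way at 30000, with 5 DMSO and 2 Lgk974 libraries, and the far end of TFF1 was called in 2 and 6.

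**Figure D3:**
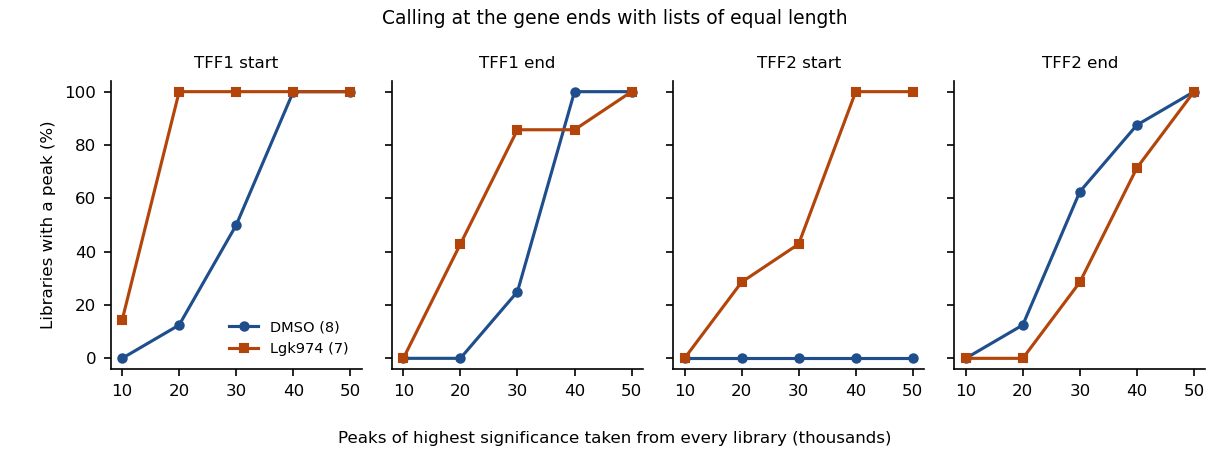
Share of DMSO (8) and Lgk974 (7) libraries in percent with a peak at each end of TFF1 and TFF2, when the 10000 to 50000 most significant peaks of every library are taken (horizontal axis, in units of 1000 peaks). At the start of TFF1 the Lgk974 line reaches 7 of 7 at 20000 while DMSO is at 1 of 8, and at the start of TFF2 the DMSO line stays at 0 of 8 while Lgk974 reaches 7 of 7 at 40000.

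TFF3, the trefoil factor of goblet cells, was nearly without peaks. The 1 region inside it, 42312510 to 42312803, was called in 1 library, Lgk974 48 h replicate 3, which is among those that stood apart, so without it the gene had no peak in any library. That peak ranked 40603 in its list, 294 bp wide, and lay 843 bp from the far end of the gene. Within 3 kb of an end of TFF3, 6 of 8 DMSO libraries and 7 of 7 with Lgk974 had a peak, mostly at 42309437 to 42310056, a region 1611 bp beyond the far end that was called in 5 DMSO and 6 Lgk974 libraries. Upstream of the start, 1527 bp away, a region was called in DMSO 24 h replicate 3 and Lgk974 24 h replicate 1. Ordered by how many libraries called a peak within 1 kb of an end, the genes were TFF1 and TFF2 with 15 each, then TFF3 with 1.

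Regions between and beside the genes varied less clearly by treatment. Of the 11 regions of the locus called in 3 to 12 libraries, 8 were called in a higher share of Lgk974 libraries and 3 in a lower share, where over all such regions the shares were 45.9% and 54.1%. The 8 include the region at the start of TFF2, by which the locus was chosen. In LOC105372815 the region 42352356 to 42352770, next to the start of TFF2 across a gap of 707 bp, had a peak in 4 of 8 lists with DMSO and 6 of 7 with Lgk974, and at equal length in 1 and 2. The TMPRSS3 region that holds the printed promoter, 42389005 to 42389788, was called in 6 of 8 and 6 of 7, and at equal length in 0 and 2. The 2 regions just beyond ABCG1, at 42298178 and 42299348, were called in 8 and 6 and in 7 and 6 libraries, and the ABCG1 region at 42292080 in 7 of 8 and 4 of 7.

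**Figure D4:**
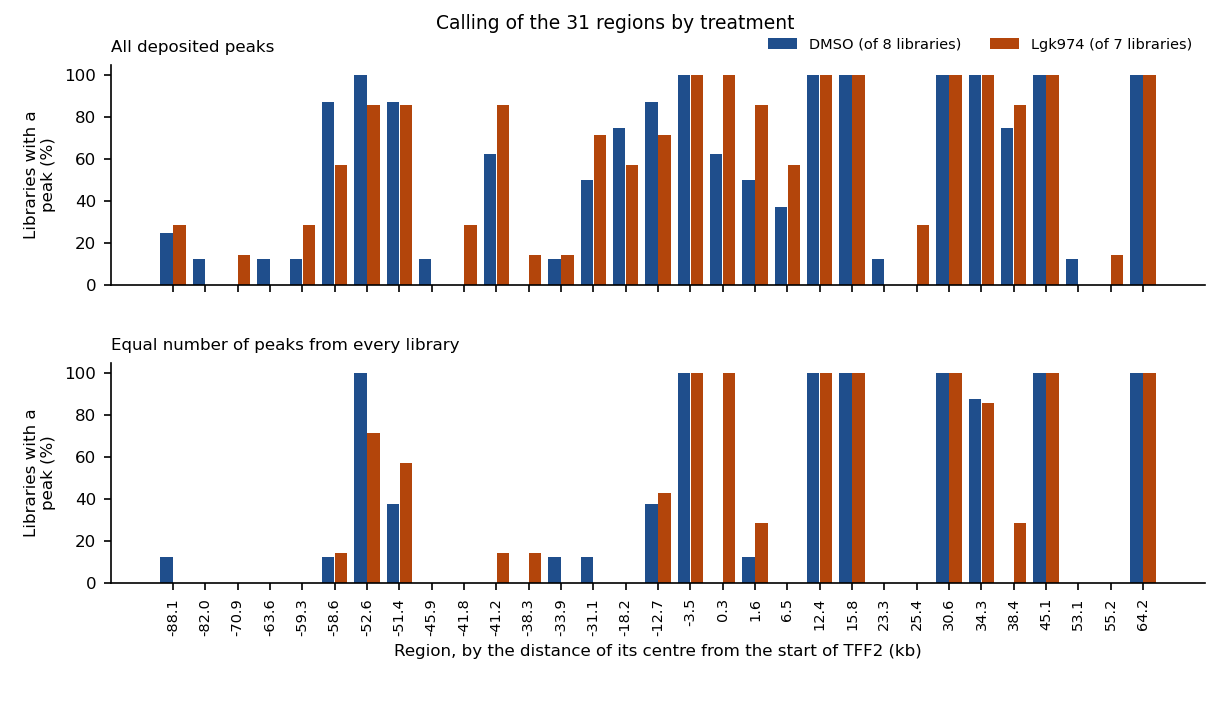
Percent of DMSO (of 8) and Lgk974 (of 7) libraries with a peak in each of the 31 regions, ordered by the distance of their centre from the start of TFF2 in kb, with all deposited peaks above and lists of equal length below. In the lower panel the region at the start of TFF2 has a bar for Lgk974 at 7 of 7 and none for DMSO, while 6 regions have full bars for both.

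Time was a contrast that the choice of the locus had not used, and it was tested. The number of locus regions called was 17, 17, 20 and 11 in DMSO replicates 1 to 4 at 24 h (16.3 ± 3.77, SD, n = 4), and 15, 17, 15 and 15 at 48 h (15.5 ± 1.00, n = 4). With Lgk974 it was 19, 18, 11 and 19 at 24 h (16.8 ± 3.86, n = 4) and 20, 22 and 11 at 48 h (17.7 ± 5.86, n = 3). From 24 h to 48 h the mean differed by -0.75 regions with DMSO (two-sided exact permutation test over 70 assignments, p = 0.743) and by 0.917 with Lgk974 (35 assignments, exact p = 0.714, smallest possible 0.0286), both 0.743 after Benjamini-Hochberg adjustment over these 2 tests. Both differences were smaller than the spread between replicates. The difference between them, 1.67 regions, was not past the threshold either (exact permutation of times within treatment, p = 0.679). That permutation assumes no difference between times in either treatment, so it does not test equal differences alone. Leaving out single libraries changed the sign of each: DMSO 24 h replicate 3 for DMSO (0.5 without it), and for Lgk974 its 24 h replicate 3 (-1), 48 h replicate 1 (-0.25) and 48 h replicate 2 (-1.25).

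Over all regions called in 3 to 12 libraries, tested for time with the labels permuted within treatment, 0 of 60356 passed an adjusted p of 0.05 (0%), and at an unadjusted p under 0.05, 1.25% were called more often and 0.504% less often at 48 h. The smallest p over the 2450 assignments was 0.000408 in that exact permutation test, so many regions at this value would be needed before any could pass. The lack of passing regions therefore shows little. Of the 11 locus regions among them 0 passed, and 0 had an unadjusted p under 0.05 in the exact permutation test. Calls were more frequent at 48 h in 5 of them and less frequent in 6. Between TFF3 and TFF2, the region 42332273 to 42333285 had the largest difference of the 11, with calls in 4 of 8 libraries at 24 h and 6 of 7 at 48 h (33.3 percentage points averaged over treatments, exact p = 0.296). The region at the start of TFF2 was called in 7 of 8 libraries at 24 h and 5 of 7 at 48 h.

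**Figure D5:**
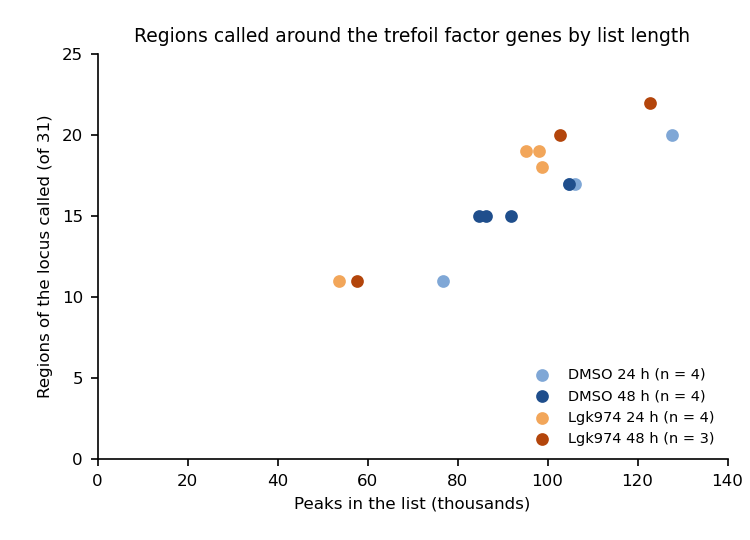
Number of the 31 locus regions called in each of the 15 libraries (vertical axis) against the number of peaks in its list in units of 1000 (horizontal axis), coloured by group. The 2 shortest lists, Lgk974 24 h replicate 3 and Lgk974 48 h replicate 3, and DMSO 24 h replicate 4 have 11 regions each, and the longest lists have 20 and 22.

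How many regions a library called moved with the length of its list, as the plot of regions against list length shows. Between treatments the means differed by 0.5 regions at 24 h and by 2.17 at 48 h, Lgk974 minus DMSO, as a description. In lists of equal length the counts were 10, 8, 13 and 8 for DMSO and 11, 10, 11 and 10 for Lgk974 at 24 h, and 9, 9, 9 and 8 for DMSO and 10, 11 and 11 for Lgk974 at 48 h. These counts include the region at the start of TFF2, by which the locus was chosen, so no separation of the treatments is read from them. DMSO 24 h replicate 3, with 13, was above every Lgk974 library.

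Other genes of mucous secretion were read from a list of 43, the trefoil factors included, which was chosen with earlier results of these data known. It holds mucins, their folding factors, gastric and intestinal regulators, and reported trefoil factor receptors and partners. Of the 43 genes, 23 were called in all 15 libraries, by a peak at most 1 kb from either end (53.5%, against 55.7% of protein-coding genes). These included the mucin genes MUC1, MUC2, MUC4, MUC5AC, MUC5B and MUC13, the mucin-folding gene AGR2, the goblet cell regulators SPDEF and KLF4, and FOXA1, FOXA2 and FOXA3. No library had a peak at GKN1, a gastric secreted protein gene, GATA4, ATOH1, REG4, CLCA1, LINGO2 or LINGO3. The share of libraries was higher with Lgk974 for 4 genes and lower for 9, with a median difference of 0, and over all protein-coding genes 8.43% were higher and 17.2% lower. In lists of equal length that balance turned, with 8 higher and 3 lower, where of all 19974 protein-coding genes 1438 were higher and 2075 lower.

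From this list, the genes with the largest differences between treatments were AGR3, a relative of AGR2, and CLDN18, a tight junction gene of the stomach, both with a peak in 4 of 8 DMSO lists and 0 of 7 with Lgk974. FCGBP, which encodes a mucus protein, was called in 0 and 3, and ZG16, a lectin of goblet cell mucus, in 1 and 2. CREB3L1, a secretory transcription factor gene, and GKN2, a gastric gene whose product binds TFF1, were called in 8 and 6 each and, being called in more than 12 libraries, were not tested. Of 6 list genes called in 3 to 12 libraries 0 passed an adjusted p of 0.05 in an exact permutation test within time, and 0 had an unadjusted p under 0.05. AGR3, CLDN18 and FCGBP had the lowest p, 0.0918 each (adjusted p = 1). All calls of these genes fell in a single treatment, so with so few calls no lower p was possible in that direction. The list was also chosen with earlier results known, so its p-values are a description, and their lack of low values does not show equal calling. Over the 1982 genes tested 0 passed, with unadjusted p under 0.05 for 1.56% called more often and 2.88% called less often with Lgk974. With few possible assignments, no gene could have passed by itself.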

How the data were processed

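ATAC-seq peak lists of 15 HPAF-II libraries in 4 groups were used. The submitters' processing notes name hg38 and, in no stated order or version, Bowtie2, Trimmomatic, SAMtools, Picard, MACS2, bedtools, DiffBind, DESeq2, ChIPseeker and HOMER. Settings, and any shift of reads for the transposase, are not given in the sources used, and they affect weak peaks and peak edges. The deposited lists give every peak a score, a fold (ratio) over background, and its −log10 p and −log10 q from the authors' peak caller. There is 1 list per library, not a pooled one, and these values served only within it, to rank, filter or describe peaks. Of 1413185 peaks, 1138 off chromosomes 1 to 22 and X were left out, and 1 damaged line of DMSO 48 h replicate 4 was read as chromosome 1. No read counts were used, so depth is unknown and no interval on reads was formed.

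Peaks were merged to regions by an overlap of at least 1 bp, checked against bedtools 2.31.1, with scipy 1.17.1, pandas 2.3.3 and numpy 2.4.6 under Python 3.11.15 and figures by matplotlib 3.10.9. Peaks were ranked by significance within each list, and equal lists held 53583. Gene positions came from RefSeq on GRCh38.p14, and a gene end was called with a peak within 1 kb. Time was tested by two-sided exact permutation over libraries and, per region called in 3 to 12 libraries, within treatment with Benjamini-Hochberg adjustment at 0.05; gene ends were tested likewise for treatment within time. The scripts were tested on simulated data. Some marker genes are not reported here.

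The members and lists were chosen with earlier results of these data known. Named by rule were the trefoil factors, every gene of the window, up to 5 genes of the most like calling for a trefoil gene called in 3 to 12 libraries (none was), and 6 genes of the secretory list with the largest treatment difference. Alternatives were equal lists, 200 bp summit windows, a cover of 50%, a −log10 q of at least 5, a locus of 25 kb, gene ends of 3 kb, each library left out, the 3 libraries that stood apart left out, and a replicate block. Libraries of the same replicate number partly deviated together. The correlation of their deviations from the group means was over 0.1 in every such pair between treatments at 24 h (0.102 to 0.142). Between times with DMSO it was 0.124 to 0.197. It fell to -0.0321 between treatments at 48 h and to -0.0254 between times with Lgk974. Some other numbers correlated as well. Between times with DMSO the values were 0.152 and 0.186 across replicates 1 and 2, and 0.139 and 0.122 across replicates 3 and 4. At 24 h, DMSO replicate 3 and Lgk974 replicate 4 had 0.151. The numbers are thus not shown to pair the libraries, and the block by number is an alternative only. The medians were 0.115 between treatments and 0.126 between times for the same number, and -0.0649 and -0.120 for other numbers.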

Additional observations from a re-analysis of the deposited data

Results flagged for a closer look

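In 2 groups a library stood far from the rest in the number of locus regions called, DMSO 48 h by either kind of list and Lgk974 24 h with all peaks. The rule is set so that chance meets it in about 5% of groups of continuous values. Where the other counts of a group are tied, as in DMSO 48 h, a difference of a single region is enough, and its rate for such counts was not tested. With all deposited peaks, DMSO 48 h replicate 2 had 17 regions where the other libraries of its group had 15 each. Lgk974 24 h replicate 3, 1 of the 2 shortest lists, had 11 regions where the others had 18, 19 and 19. In lists of equal length, DMSO 48 h replicate 4 had 8 regions where the others had 9 each.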

How the results depend on the processing

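The 48 h minus 24 h difference in locus regions called with DMSO, -0.75, changed sign to 0.25 with a −log10 q of at least 5, to 0.25 within 25 kb and to 0.5 without the 3 libraries that stood apart. With 1 library left out at a time it ran from -2.5 to 0.5 with DMSO and from -1.25 to 4.25 with Lgk974 (0.917 in all), and adjusted p over all alternatives ran from 0.229 to 1 and from 0.2 to 1. The cause was not tested.

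The difference between treatments in libraries with a peak at either end of TFF2, 0 percentage points, was 37.5 with 200 bp summit windows and -1.79 when peaks had to cover 50% of a region. At the start of TFF2 alone it was 37.5 points, 100 in lists of equal length, and 28.6 to 42.9 with 1 library left out. That range was 0 to 0 for TFF1 and for either end of TFF2, and 0 to 16.7 for TFF3. For locus regions called it was -1.25 to 2.42 at 24 h and 0 to 5.5 at 48 h, and the counts of regions past the adjusted threshold, for either contrast, were 0 under every alternative run (at an unadjusted p under 0.05, Lgk974 had 1784 regions of higher and 1857 of lower calling, and 48 h had 755 and 304). With few possible assignments no region could have passed the adjusted threshold by itself, so those counts of 0 show little. The balance for Lgk974 moved to 2802 and 643 without the 3 libraries that stood apart, to 2184 and 755 without Lgk974 48 h replicate 3, to 843 and 1511 without DMSO 24 h replicate 3, and to 140 and 199 with the replicate block.

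With the replicate number as a block, the differences between times were -0.75 (DMSO) and 1.67 (Lgk974), those between treatments 0.5 at 24 h and 2 at 48 h, and the start of TFF2 differed by 28.6 points. The block changed no call. For the time differences the exact permutation p was 0.75 with DMSO (16 assignments) and 0.5 with Lgk974 (8 assignments), both 0.75 after Benjamini-Hochberg adjustment. The labels give no pairing by number, and some libraries correlated better with another number than with their own.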

Other observations

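Protein-coding genes whose calling followed that of the start of TFF2 were sought after its values had been seen, so the genes below are a description without a test. In lists of equal length, 3 of 19974 genes, STK17B, BMP8A and PLEKHS1, had the same state in 15 of 15 libraries for a peak at most 1 kb from either end, that is a peak in all 7 Lgk974 and none of the 8 DMSO libraries. STK17B encodes a serine/threonine kinase and BMP8A a secreted signalling protein. With all deposited peaks they matched the start of TFF2 in 12, 11 and 11 libraries, and were called in 8, 7 and 5 DMSO libraries and in all 7 Lgk974 libraries. Matching in 14 or more libraries were 8 genes, among them LY6G6F and IVL, which encodes the cornified envelope protein involucrin. The 15 libraries share treatments and list lengths, which the likeness includes.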
